A study of Mus musculus with 34 samples.

Results

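The mRNAs of 73 mitochondrial ribosomal proteins were followed in cultured mouse osteosarcoma cells. They were every gene of the culture table whose symbol is Mrpl or Mrps with a number and, for some, a closing letter from a to c, 73 of 16576 genes. By the current nomenclature 49 belong to the large subunit of the mitochondrial ribosome, and the other 24 were counted with its small subunit. Mrps30 and Mrps18a were counted with the large subunit, where their proteins sit in spite of their symbols. Mrps36, now named Kgd4 and known as a part of the 2-oxoglutarate dehydrogenase complex, stayed among the small subunit genes because its symbol fits the rule.

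The cells were MOSJ-Dkk1, one mouse osteochondral sarcoma line that carries a red fluorescent protein and a lentiviral cassette from which the CMV promoter drives human Dkk-1, a secreted inhibitor of canonical Wnt signalling, at all times. All 6 groups shared this cassette, and each held 3 libraries. Cultures without a morpholino (NT), with DkkMo at 5 µM, a morpholino directed at the 5′ end of the human Dkk-1 mRNA, or with scrMo at 5 µM, its mismatched control, were taken in log phase after 6 days with regular changes of medium. The same 3 treatments were taken under nutritional stress, which was 48 h of confluence without a change of medium for 4 days. A legend of the study gives another dose for the cultures, and the labels' dose is printed here. Mouse Dkk1 has no row in the culture table and the human transcript was not analysed here, so that the action of DkkMo could not be checked from these values. Nothing in the labels says whether the libraries of a group came from separate cultures, and p-values then measure only the spread between these samples.

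Each library held between 25.9 and 44.8 megareads, and each of the 73 genes had reads in every library. Of the labelled lineage, Runx2, Col1a1, Sparc, Spp1 and Sox9 were well above 1000 normalized counts in every library, while Alpl, Bglap and Col2a1 stayed below 50, and Sp7 and Acan have no row. Of the 3 leukocyte markers, all measured, Ptprc, which defines them, lay between 1.04 and 20.3 normalized counts and Csf1r between 414 and 782. Cd68 moved with the groups, with a mean of 400 in log-phase NT, 717 in DkkMo and 953 in scrMo, and of 1425, 1529 and 1505 under stress. Their sum lay between 840 and 894 in log-phase NT, 1093 and 1335 in DkkMo, and 1321 and 1772 in scrMo, and under stress between 1996 and 2294, 2046 and 2113, and 2047 and 2122. The endothelial marker Pecam1 lay between 269 and 426, and the other endothelial and the epithelial markers have no row. In log phase, replicate 1 of DkkMo and replicate 1 of scrMo stood apart. In these libraries 69 and 67 of the 73 genes, respectively, lay above the mean of their own group. The log-phase comparison of DkkMo with scrMo and its difference from that under stress are therefore also given without both. That of scrMo with NT is also given without scrMo replicate 1.

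The mitochondrial ribosome translates only the handful of mRNAs made from mitochondrial DNA, which encode core subunits of the respiratory chain and of the ATP synthase. Its rRNAs are transcribed inside the organelle, mt-Rnr1 (12S) for the small and mt-Rnr2 (16S) for the large subunit. Its proteins are all encoded in the nucleus, translated in the cytosol and imported, so that a ribosome needs the output of both genomes. Many of them descend from bacterial ribosomal proteins, and the others were added during the evolution of the mitochondrion.

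The 73 genes lie on 17 chromosomes, 11 of them on chromosome 11. RefSeq promoters (GRCm38.p6, from 250 bases before to 50 after each start) were found for 65 of the 73 genes, 71 promoters in all. Mrpl4, Mrpl13, Mrpl15, Mrpl19, Mrpl38, Mrpl54, Mrps34 and Mrps35 have no entry. Letters that match 4 well-known factors of housekeeping and mitochondrial genes were searched on both strands. The letters CCGGAAG, bound by ETS factors such as GABP, stood in 24 of the 71 promoters (33.8%), against 8.86% of all 32851 promoters of the same length. AAGATGGCG (YY1) stood in 8 promoters (11.3% against 1.40%) and GCGCATGC (NRF1) in 7 (9.86% against 2.71%). CACGTG, an E-box that MYC and related factors bind, stood in 7 (9.86% against 7.15%). Of these, overlapping promoters of Mrpl2 hold 1 and the same site, at -131, -139 and -147 from their starts. The E-box share thus counts this gene more than once. These are matches of letters, not measured binding.

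The last 120 bases before the start are printed for 6 genes, 5′ to 3′ on the strand of the gene, with every match of these letters in capitals. Mrpl17, Mrpl52, Mrpl32 and Mrpl36 were lower under stress in all 3 treatments, and Mrpl20 and Mrps2 were higher in all 3 as deposited.
Mrpl17, chr7:105811088-105811207, minus strand: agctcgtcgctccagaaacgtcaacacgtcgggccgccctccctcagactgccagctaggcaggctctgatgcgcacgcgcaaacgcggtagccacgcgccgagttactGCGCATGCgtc
Mrpl52, chr14:54426789-54426908, plus strand: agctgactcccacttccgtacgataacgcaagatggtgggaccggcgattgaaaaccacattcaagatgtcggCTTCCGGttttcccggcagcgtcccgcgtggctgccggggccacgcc
Mrpl32, chr13:14613038-14613157, minus strand: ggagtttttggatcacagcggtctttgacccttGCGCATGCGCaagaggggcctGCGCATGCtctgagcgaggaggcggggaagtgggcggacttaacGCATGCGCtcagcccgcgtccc
Mrpl36, chr13:73330889-73331008, plus strand: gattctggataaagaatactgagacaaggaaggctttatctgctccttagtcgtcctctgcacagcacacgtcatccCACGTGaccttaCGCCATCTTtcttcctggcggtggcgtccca
Mrpl20, chr4:155802758-155802877, plus strand: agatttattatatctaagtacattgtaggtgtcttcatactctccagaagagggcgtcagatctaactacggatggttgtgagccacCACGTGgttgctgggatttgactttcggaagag
Mrps2, chr2:28467946-28468065, plus strand: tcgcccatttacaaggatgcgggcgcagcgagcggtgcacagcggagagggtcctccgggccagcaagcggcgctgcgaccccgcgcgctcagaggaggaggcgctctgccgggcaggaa
The stretch of Mrpl17 holds NRF1 letters close to the start, that of Mrpl52 ETS letters, and that of Mrpl32 several NRF1 matches, of which a pair overlaps. Mrpl36 holds an E-box and YY1 letters side by side, Mrpl20 an E-box, and Mrps2 none of the 4. Among the genes lower in all 3 treatments, 22 had a promoter entry, with 26 promoters, of which 11 (42.3%) held the ETS letters. Among the genes higher in at least 1 treatment and lower in none, 3 of 16 promoters (18.8%) did. The other letters stood in a smaller share of the promoters of the lower genes than of the higher genes, with 15.4% against 18.8% for YY1, 7.69% against 12.5% for NRF1 and 3.85% against 12.5% for the E-box. These are 1 to 4 promoters in each case, and no difference was tested.

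Per length of the gene's exons, most of these genes were expressed above the typical gene. Their median was 439 normalized counts per kb, against 217 for all 12163 protein-coding genes tested. The median of the large subunit was 499 and that of the small subunit 376, and 65 of the 73 genes lay above the median of all genes. Mrpl20, a homologue of bacterial L20, was highest with 5036 normalized counts per kb, followed by Mrps6 with 4489 and Mrpl21 with 3155. Mrps23 was lowest with 26.9 per kb, below Mrps35 with 47.0 and Mrpl1 with 137. The genes thus spanned more than 100-fold in level although the proteins sit in the same particle. In Mrps23 the level rested on few reads, 20 in the library with the fewest. Its normalized counts were 22.7, 104 and 38.9 under stress in NT and 38.2, 18.3 and 134 in scrMo, so that a single library stood far above its group in each.

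Exons of 32 of these genes overlap those of another gene, over more than 20% of their length in 10. The largest shares were 88.0% for Mrpl53 (with Gm42688), 77.8% for Mrps34 (with Mapk8ip3) and 69.8% for Mrps25 (with Nr2c2). The strand setting of the counting is not given in the sources used here, so the values of these genes are uncertain where the partner is expressed.

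Summed over the 73 genes, the normalized counts were 116176 ± 1401 in log phase in NT (mean ± SD, n = 3 here and for all group values), 126967 ± 8907 in scrMo and 121348 ± 8872 in DkkMo. Under nutritional stress the sums were 113787 ± 2651 in NT, 107802 ± 1902 in scrMo and 106055 ± 1301 in DkkMo. The libraries of stress and log phase overlapped in NT, but every stressed library lay below every log-phase library in scrMo and in DkkMo. As a share of all counts the genes took 0.364% ± 0.00358 in log-phase NT and 0.318% ± 0.00388 in stressed NT, which did not overlap, 0.391% ± 0.0175 and 0.329% ± 0.00387 in scrMo, and 0.373% ± 0.0225 and 0.331% ± 0.00502 in DkkMo. Between the stressed groups the direction turned with the scaling, since the share was higher in scrMo and DkkMo than in NT while the sum of normalized counts was lower, without overlap in either. For bulk cultures, fewer cells that express a gene and less RNA per cell cannot be told apart.

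The subunits moved apart most in NT. The large subunit sum fell from 82004 ± 1290 to 75807 ± 2188 under stress, while the small subunit sum was 34172 ± 114 in log phase and 37981 ± 464 under stress, and neither pair of groups overlapped. The ratio of the large to the small sum was 2.40 ± 0.0301 in log-phase NT and 2.00 ± 0.0330 in stressed NT. It was 2.38 ± 0.0980 and 2.25 ± 0.0208 in scrMo, and 2.52 ± 0.0859 and 2.21 ± 0.0328 in DkkMo. In each treatment the ratio was lower in all stressed libraries than in all log-phase libraries. Much of this was 1 gene, Mrps6. In NT it rose by more than the whole small subunit sum did, so that the small subunit sum without Mrps6 did not rise. Without Mrps6 the ratio was 2.85 ± 0.0337 and 2.67 ± 0.0129 in NT, and 2.89 ± 0.0719 and 2.90 ± 0.0380 in scrMo, where log phase and stress then overlapped. In DkkMo it was 3.00 ± 0.0627 in log phase and 2.77 ± 0.0322 under stress, a larger fall than in NT.

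**Figure D1:**
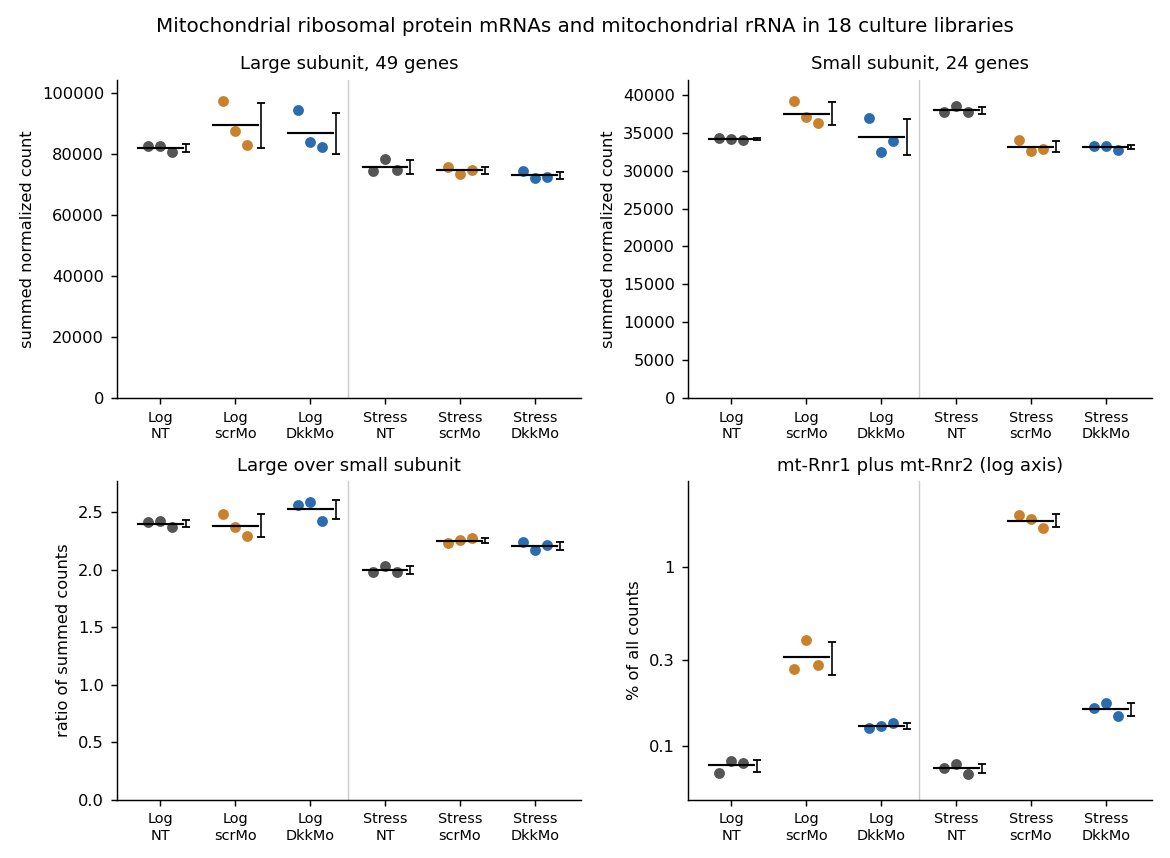
Sums of normalized counts of the large and small subunit genes, their ratio, and the share of mitochondrial rRNA among all counts (log axis where labelled), for the 6 culture groups. Points are the 18 libraries and bars the group means with SD (n = 3). The ratio of large to small was lowest in stressed NT (2.00), and the share of mitochondrial rRNA was highest in stressed scrMo (1.81%).

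Nutritional stress was compared with log phase within each treatment. The medium and the confluence differed together, and growth differed with them, since Top2a and Mki67, markers of dividing cells, were lower by 4.04 and 3.88 log2 units in NT. The log-phase groups were not alike in these markers either. Mki67 held 4118, 5790 and 4551 reads there in NT, 3153, 6171 and 4006 in DkkMo, and 2301, 1508 and 2206 in scrMo. The part of growth in the comparisons between treatments was not tested. In NT, 18 of the 73 genes were higher and 29 lower (limma, adjusted p below 0.05). Over all genes tested 65.6% were called, 31.5% higher and 34.1% lower, so that the share of these genes called in NT lies near the background. In scrMo 3 genes were higher and 47 lower, where 58.8% of all genes were called, 28.0% higher and 30.8% lower. In DkkMo 10 were higher and 45 lower, where 65.6% of all genes were called, 30.4% higher and 35.2% lower. As shares of the 73 genes, 64.4% were lower in scrMo and 61.6% in DkkMo. The median log2 fold change of the 73 genes was -0.08 in NT, -0.23 in scrMo and -0.18 in DkkMo, beside -0.01 over all genes in each. The 3 stressed libraries and the 3 log-phase libraries did not overlap for 55 of the 73 genes in NT, 55 in scrMo and 53 in DkkMo, where this held for 74.6%, 62.6% and 66.8% of all genes.

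These counts depend on how the libraries are scaled. The median value of a library lay lower under stress by 0.16 log2 units in NT, 0.07 in scrMo and 0.16 in DkkMo. With each library centred on its median value, 27 genes were higher and 17 lower in NT, where 50.9% of all genes were higher and 21.6% lower. In DkkMo the centred counts were 20 higher and 26 lower, where 51.9% and 22.2% of all genes were. In scrMo they were 6 higher and 39 lower, where 36.6% and 24.3% of all genes were. The centred median of the 73 genes was 0.08 in NT, -0.02 in DkkMo and -0.17 in scrMo, beside 0.14, 0.15 and 0.06 over all genes. It lay below that of all genes in each treatment. Centring shifts every gene of a comparison by the same amount, so this gap is the same with and without it and is no separate support.

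**Figure D2:**
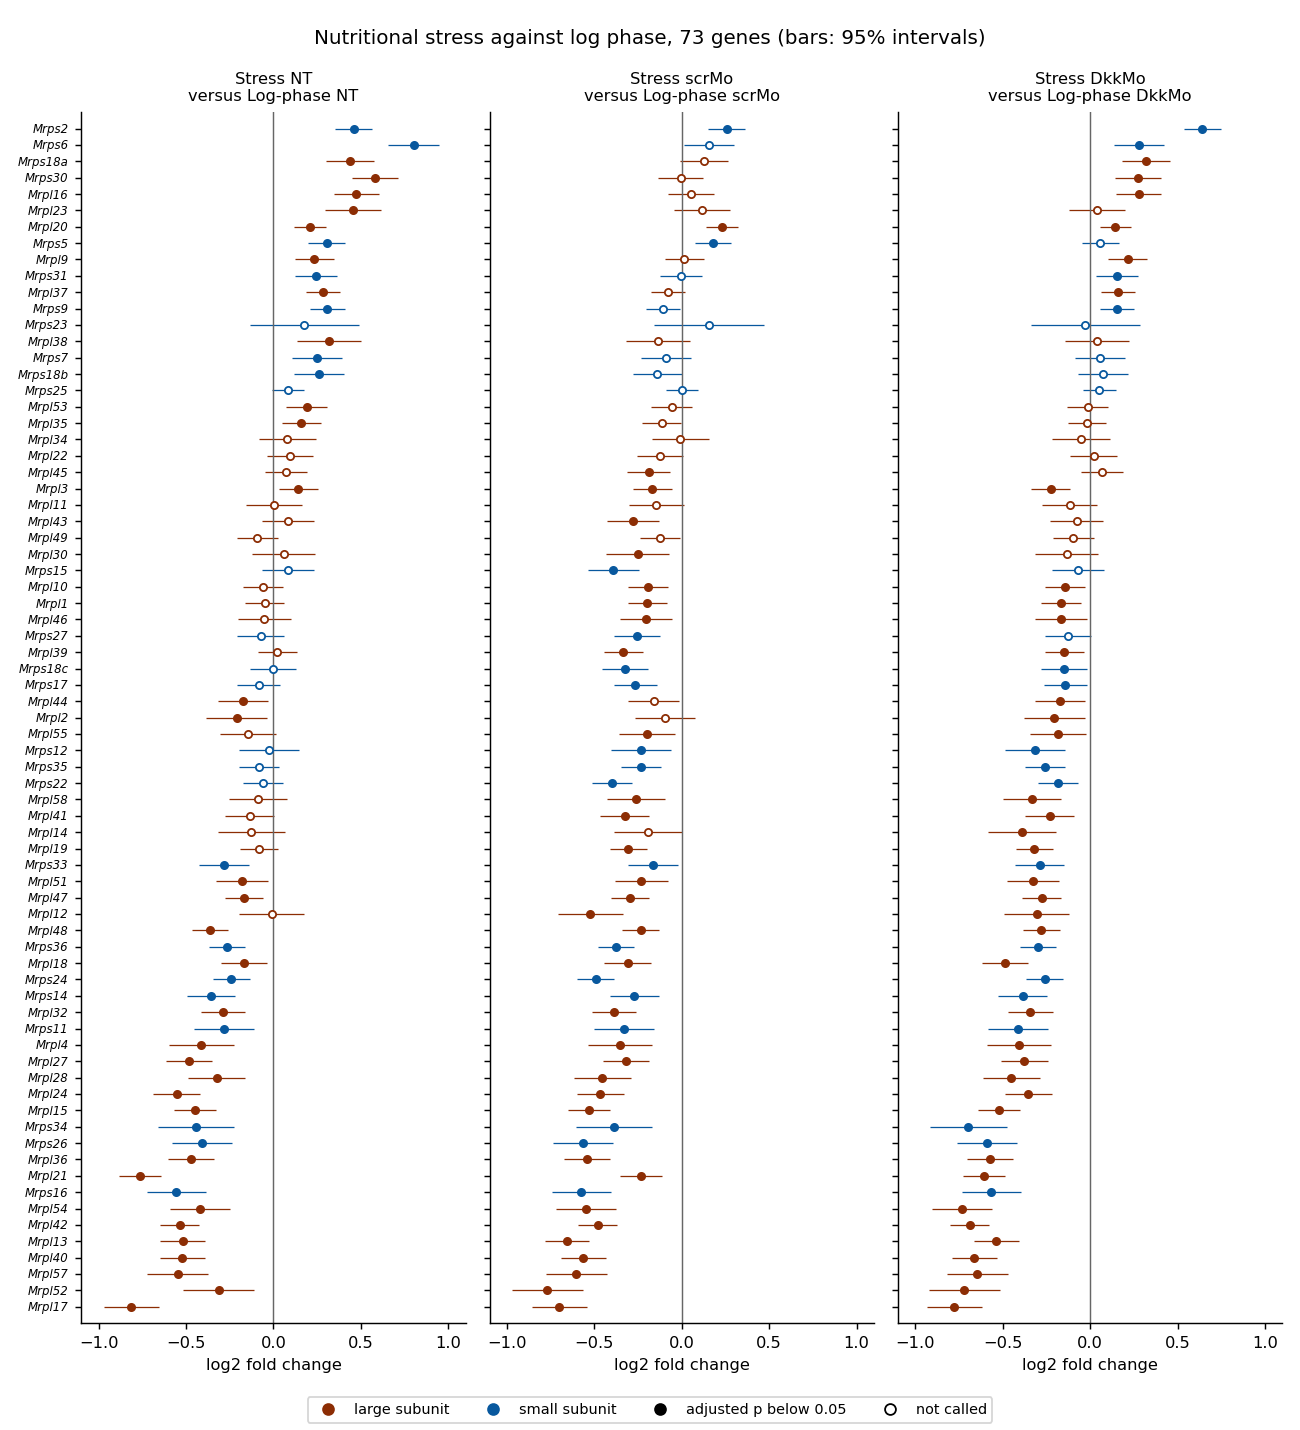
Log2 fold change under nutritional stress against log phase for each of the 73 genes in NT, scrMo and DkkMo, with 95% intervals from limma and colours for the subunits. In scrMo nearly all called genes lie to the left of 0 (3 higher, 47 lower), while NT holds genes on both sides (18 higher, 29 lower).

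By subunit, 21 of the 49 large subunit genes were lower and 11 higher in NT, and 8 of the 24 small subunit genes were lower and 7 higher. In scrMo 32 large and 15 small subunit genes were lower, and 1 and 2 were higher. In DkkMo the counts were 32 and 13 lower, and 6 and 4 higher. Of all genes 34.1% were lower and 31.5% higher in NT, 30.8% and 28.0% in scrMo, and 35.2% and 30.4% in DkkMo. The small subunit counts in NT thus lie near the background. Genes listed with a bacterial homologue and all other genes were called lower in like shares, with 17 of 42 and 12 of 31 lower in NT, 27 and 20 in scrMo, and 27 and 18 in DkkMo. The list is a rough one, since it holds Mrps18c but not Mrps18a and Mrps18b.

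Calls recurred between the treatments. Of the 29 genes lower in NT, 27 (93.1%) were among the 47 lower in scrMo (57.4% of those), and all 29 were among the 45 lower in DkkMo (64.4%). Over all genes 59.8% of those lower in NT were lower in scrMo (66.2% of those) and 77.3% in DkkMo (75.0%). Lower in all 3 treatments were 37.0% of the 73 genes and 19.5% of all genes, a difference that was not tested. The 27 genes lower in all 3 treatments were Mrpl4, Mrpl13, Mrpl15, Mrpl17, Mrpl18, Mrpl21, Mrpl24, Mrpl27, Mrpl28, Mrpl32, Mrpl36, Mrpl40, Mrpl42, Mrpl47, Mrpl48, Mrpl51, Mrpl52, Mrpl54 and Mrpl57 of the large subunit, and Mrps11, Mrps14, Mrps16, Mrps24, Mrps26, Mrps33, Mrps34 and Mrps36 by the small subunit's symbols. Mrpl20 and Mrps2 were higher in all 3 (2.74% of the 73 genes, against 16.6% of all genes). Another 14 genes were lower in scrMo and DkkMo but not called in NT, 8 were higher in NT and DkkMo but not called in scrMo, and 6 were higher in NT alone. Mrpl3, the homologue of bacterial L3, was the single gene with opposite calls (0.14 in NT, -0.17 in scrMo and -0.23 in DkkMo). After median centring 17 of the 27 genes remained lower in all 3 treatments, and after quantile normalization 22. Higher in all 3 were then 6 genes after median centring, Mrpl20 and Mrps2 with Mrpl23, Mrps18a, Mrps5 and Mrps6, and the same without Mrpl23 after quantile normalization. The shares of all genes called in all 3 treatments under these scalings are not given here. Nor are those for the patterns of the 14, 8 and 6 genes, so these counts have no background beside them. Mrpl3 was no longer lower in scrMo under either (adjusted p = 0.104 and 0.0918).

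Among the genes lower in all 3 treatments, Mrpl17, the homologue of bacterial L17 (chromosome 7, 105803206 to 105811099, minus strand), had the largest mean fall. Its normalized counts in NT were 1850, 1935 and 1832 in log phase and 931, 976 and 945 under stress. In scrMo they were 2075, 1818 and 1678 against 1021, 1011 and 1078, and in DkkMo 2278, 1924 and 1717 against 1125, 975 and 1004. Every stressed library thus lay far below every log-phase library of its treatment. On the deposited scale the change was -0.81 ± 0.08 (log2, SE; adjusted p = 1.5e-08) in NT, -0.70 ± 0.08 (2.3e-07) in scrMo and -0.78 ± 0.08 (3.3e-08) in DkkMo. The deposited scale compresses low counts, and the ratios of mean normalized counts were 0.508, 0.558 and 0.525. Mrpl57, a mitochondria-specific protein, was lower by somewhat less (-0.55 ± 0.08, -0.60 ± 0.08 and -0.65 ± 0.08), with 578, 530 and 512 in log phase and 289, 302 and 301 under stress in NT.

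Mrpl21 and Mrpl52 fell in all 3 treatments but by unequal amounts. Mrpl21, the homologue of bacterial L21 (chromosome 19, 3282901 to 3292837, plus strand), had 6950, 7558 and 7324 normalized counts in log-phase NT and 4105, 4245 and 4145 under stress. In scrMo the values were 7073, 6624 and 7175 against 5985, 5728 and 5922, and in DkkMo 7877, 9348 and 7963 against 5333, 5424 and 5420. The groups did not overlap in any treatment, but the fall was -0.76 ± 0.06 in NT, -0.23 ± 0.06 in scrMo and -0.61 ± 0.06 in DkkMo (adjusted p = 6.8e-10, 0.0018 and 2e-08). Mrpl52, a mitochondria-specific protein (chromosome 14, 54426909 to 54429756, plus strand), showed the reverse order. Its fall was -0.31 ± 0.10 in NT (adjusted p = 0.0083), -0.77 ± 0.10 in scrMo (1.7e-06) and -0.72 ± 0.10 in DkkMo (2.7e-06). The NT libraries had 1382, 1388 and 1382 normalized counts in log phase and 1064, 1089 and 1032 under stress, and the scrMo libraries 1982, 1499 and 1437 against 867, 804 and 862. With median centring the call of Mrpl52 in NT was lost (adjusted p = 0.158).

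Mrpl36, the homologue of a very small bacterial protein, and Mrpl32, which a protease of the inner membrane matures before it joins the ribosome, were lower with smaller changes. For Mrpl36 they were -0.47 ± 0.06, -0.54 ± 0.06 and -0.57 ± 0.06 in NT, scrMo and DkkMo, and for Mrpl32 -0.29 ± 0.06, -0.39 ± 0.06 and -0.34 ± 0.06. In NT the call of Mrpl32 was lost with median centring (adjusted p = 0.0659) and quantile normalization (0.0789). Mrps16, a homologue of bacterial S16, was lower by -0.55 ± 0.08, -0.58 ± 0.08 and -0.57 ± 0.08, from 1356, 1374 and 1319 normalized counts to 809, 920 and 782 in NT. Mrpl40, Mrpl42, Mrpl54 and Mrps34 passed the 1.5-fold threshold in DkkMo (-0.66 ± 0.06, -0.69 ± 0.05, -0.73 ± 0.08 and -0.70 ± 0.10), as did Mrps26 (-0.59 ± 0.08). Mrpl13 passed it in scrMo (-0.66 ± 0.06). In all, 3 of the 73 genes were past 1.5-fold in NT, 4 in scrMo and 10 in DkkMo, where 18.1%, 10.7% and 16.5% of all genes were.

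Mrps2, the homologue of bacterial S2 at the back of the small subunit (chromosome 2, 28468066 to 28471178, plus strand), rose in all 3 treatments. It had 1298, 1393 and 1376 normalized counts in log-phase NT against 1832, 2030 and 2040 under stress. In scrMo it had 1452, 1576 and 1416 against 1822, 1841 and 1801, and in DkkMo 1332, 1264 and 1297 against 2065, 2266 and 2199. No stressed library overlapped its log-phase group. The change was 0.46 ± 0.05 in NT, 0.26 ± 0.05 in scrMo and 0.64 ± 0.05 in DkkMo (adjusted p = 1.5e-07, 0.00023 and 1.7e-09). Mrpl20, the most abundant of the 73 genes per kb (chromosome 4, 155802878 to 155809975, plus strand), rose by less. Its values in NT were 7720, 7498 and 7356 in log phase and 8732, 8895 and 8557 under stress, a change of 0.21 ± 0.04, beside 0.23 ± 0.04 in scrMo and 0.14 ± 0.04 in DkkMo.

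Mrps6, the homologue of bacterial S6 (chromosome 16, 92058270 to 92112227, plus strand), and Mrps30 had the largest rises in NT. Mrps6 had 5151, 5529 and 5494 normalized counts in log-phase NT and 9916, 9304 and 9629 under stress (0.80 ± 0.07, adjusted p = 5e-09). In scrMo the values were 6416, 6345 and 6999 against 8170, 6892 and 7082, groups that overlapped, with a change of 0.16 ± 0.07 that did not pass (adjusted p = 0.061) but passed with median centring (0.22, 0.0138) and quantile normalization (0.21, 0.0176). In DkkMo they were 5512, 5113 and 5982 against 6246, 7084 and 6995 (0.28 ± 0.07, adjusted p = 0.0015). Stressed NT cultures thus held the most Mrps6 of the 6 groups. Over 19.9% of its exon length Mrps6 overlaps Gm49711 on the same strand, whose reads could be counted with it. Mrps30 (chromosome 13, 118378381 to 118387252, minus strand) followed the same order, from 1348, 1166 and 1184 to 1959, 2068 and 1908 in NT (0.58 ± 0.06, adjusted p = 1e-07). In scrMo it had 1694, 1655 and 1558 against 1677, 1582 and 1619 (-0.01 ± 0.06, adjusted p = 0.93), and in DkkMo 1374, 1128 and 1383 against 1667, 1616 and 1566 (0.27 ± 0.06, adjusted p = 0.00076). Mrps18a rose by 0.44 ± 0.07 in NT and 0.32 ± 0.07 in DkkMo, beside 0.13 ± 0.07 in scrMo (adjusted p = 0.11), which passed with median centring (0.19, 0.0182) and quantile normalization (0.17, 0.0494). Mrpl16, a homologue of bacterial L16, rose by 0.47 ± 0.06 in NT, from 629, 616 and 603 normalized counts to 935, 964 and 961, and by 0.28 ± 0.06 in DkkMo, beside 0.05 ± 0.06 in scrMo (adjusted p = 0.49). Mrps5, a homologue of bacterial S5, was higher in scrMo (0.18 ± 0.05, adjusted p = 0.0051).

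**Figure D3:**
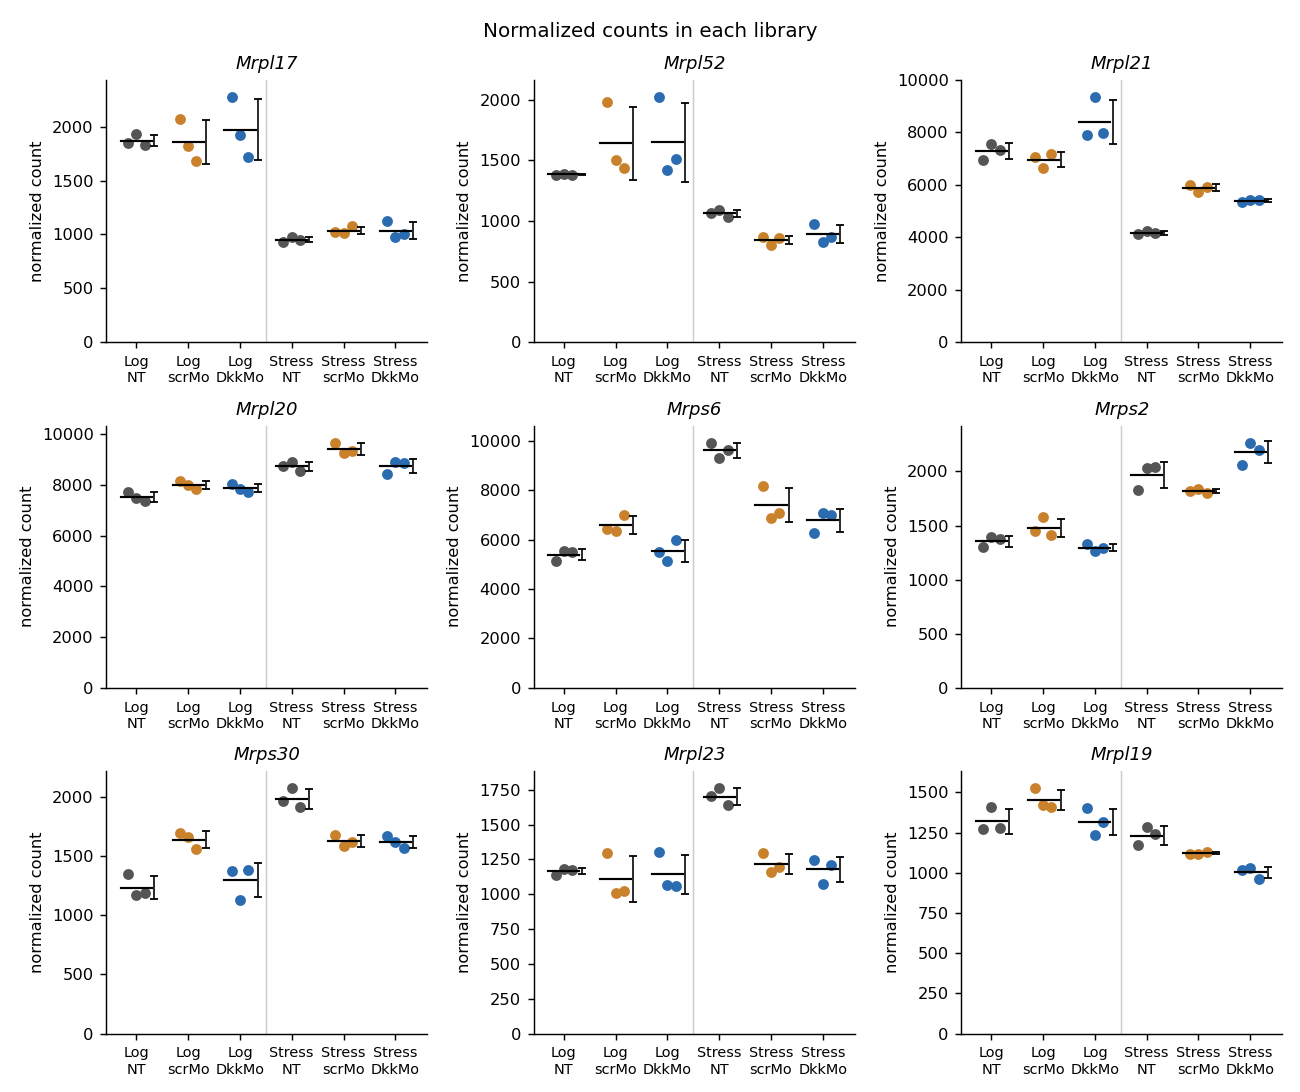
Normalized counts of single genes in each of the 18 libraries by group, with each y axis starting at 0. Points are libraries and bars group means with SD (n = 3). Mrpl17 fell by a like amount in the 3 treatments, while stressed NT libraries hold the highest Mrps6 (9304 to 9916).

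Mrpl12, which forms the stalk of the large subunit that receives the translation factors, did not pass in NT (-0.01 ± 0.09, adjusted p = 0.93) but was lower in scrMo (-0.52 ± 0.09) and DkkMo (-0.31 ± 0.09). Mrps12, the protein of the decoding centre, was alike, with -0.03 ± 0.08 in NT, -0.23 ± 0.08 in scrMo and -0.31 ± 0.08 in DkkMo. Mrpl23, which lies at the exit of the peptide tunnel, was higher in NT (0.46 ± 0.08) and not called in scrMo and DkkMo (0.12 ± 0.08 and 0.04 ± 0.08), but it passed in both with median centring (0.18, adjusted p = 0.0456, and 0.20, adjusted p = 0.0223). Mrpl45, which holds the tunnel exit against the inner membrane, was lower in scrMo (-0.19 ± 0.06) and not called in NT and DkkMo (0.07 ± 0.06 in each). With median centring Mrpl45 was higher in NT and DkkMo (0.23 in each, adjusted p = 0.00188 and 0.00163) and not called in scrMo (0.0739), Mrpl12 was not called in DkkMo (0.153), and Mrps12 was called in neither scrMo (0.0781) nor DkkMo (0.101). Mrps36 was lower in all 3 (-0.27 ± 0.05, -0.38 ± 0.05 and -0.30 ± 0.05). Mrpl46 and Mrps11 are read from a shared start region in opposite directions, with 5′ exons that overlap. Mrps11 was lower in all 3 treatments (-0.28 ± 0.08, -0.33 ± 0.08 and -0.41 ± 0.08), while Mrpl46 gave -0.05 ± 0.07 in NT, which did not pass, and was lower in scrMo (-0.21 ± 0.07) and DkkMo (-0.17 ± 0.07). With median centring Mrpl46 was not called in any treatment, and Mrps11 (adjusted p = 0.182) and Mrps36 (0.0682) lost their calls in NT.

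Mrpl19, the homologue of bacterial L19, was a reference gene of the study's RT-PCR, with Gapdh and Rps18. Its normalized counts were 1274, 1409 and 1277 in log-phase NT and 1171, 1284 and 1238 under stress, groups that overlapped (-0.08 ± 0.05, adjusted p = 0.16, or 0.08 with median centring, adjusted p = 0.195). In scrMo they were 1524, 1419 and 1410 against 1118, 1116 and 1129, and in DkkMo 1400, 1237 and 1314 against 1017, 1027 and 964. In both morpholino treatments it was lower under stress, by -0.31 ± 0.05 and -0.32 ± 0.05 (adjusted p = 3.9e-05 and 1.8e-05). Gapdh, a glycolytic enzyme, was higher under stress in each treatment (0.81 ± 0.12, 0.69 ± 0.12 and 0.61 ± 0.12). It held only 591 to 2354 reads in a library, against 30641 to 56180 for Rps18. In stressed NT its reads were 1519, 1360 and 2354, so that 1 library stood apart. Rps18 of the cytosolic ribosome was higher in NT (0.33 ± 0.09), lower in scrMo (-0.32 ± 0.09) and not called in DkkMo (0.11 ± 0.09).

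The effect of DkkMo was measured against scrMo. In log phase 4 of the 73 genes were higher and 10 lower in DkkMo, where 23.5% of all genes were called, 14.3% higher and 9.20% lower. None passed 1.5-fold, as 1.97% of all genes did. Without replicate 1 of both groups, 4 genes were higher and 16 lower. Leaving out a single library gave between 6 and 21 called genes, with 21 without DkkMo replicate 1, 6 without DkkMo replicate 2 or scrMo replicate 2, 8 without DkkMo replicate 3 and 9 without scrMo replicate 1. With each library centred on its median value, 1 gene was higher and 24 lower, where 9.47% of all genes were higher and 20.4% lower. Mrps30 (-0.29 ± 0.06, adjusted p = 0.0022), Mrps6 (-0.24 ± 0.07, 0.016) and Mrps22 (-0.23 ± 0.06, 0.0054), a mitochondria-specific small subunit protein, were lowest among the called genes. Mrpl21 was higher in DkkMo (0.26 ± 0.06, adjusted p = 0.0026), with all 3 DkkMo libraries above the scrMo libraries, and so was Mrpl18 (0.20 ± 0.06, 0.026). The call of Mrps6 was lost without DkkMo replicate 2 or scrMo replicate 3 (adjusted p = 0.0976 and 0.0665). That of Mrpl18 was lost without DkkMo replicate 1 or 3 (0.0568 and 0.0593), without scrMo replicate 2 or 3 (0.0704 and 0.132) and with median centring (0.106) or quantile normalization (0.0579). With only the libraries compared in the fit, none of the 73 genes was called, with adjusted p = 0.0771 for Mrps30, 0.133 for Mrps6, 0.106 for Mrps22, 0.128 for Mrpl21 and 0.195 for Mrpl18.

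Under stress 5 genes were higher and 3 lower in DkkMo than in scrMo, where 20.9% of all genes were called, 9.97% higher and 10.9% lower, and 1.00% past 1.5-fold, where none of the 73 genes was. The count was 4 without DkkMo replicate 2, scrMo replicate 2 or scrMo replicate 3, and 5 without DkkMo replicate 1. Mrps15, a homologue of a bacterial protein that binds the small rRNA early, was higher (0.28 ± 0.07, adjusted p = 0.0073). Its normalized counts were 1078, 1032 and 1016 in DkkMo and 783, 786 and 865 in scrMo, which did not overlap. Mrps2 was higher (0.23 ± 0.05, adjusted p = 0.0033), and so was Mrpl45 (0.19 ± 0.06, 0.027). Mrpl2, a homologue of a bacterial protein next to the peptidyl transferase centre, was lower (-0.30 ± 0.08, adjusted p = 0.013), as were Mrps5 (-0.21 ± 0.05, 0.0052) and Mrpl42 (-0.19 ± 0.05, 0.015). The call of Mrpl45 was lost without any library but scrMo replicate 1 (adjusted p = 0.0572 to 0.0978), that of Mrpl2 without DkkMo replicate 2 or scrMo replicate 2 or 3 (0.0566 to 0.071), and that of Mrpl42 without DkkMo replicate 3 or scrMo replicate 3 (0.079 and 0.0738) or with quantile normalization (0.0517). Mrps2 was lower in DkkMo than in scrMo in log phase (-0.16 ± 0.05, adjusted p = 0.028), a call that was lost with only the libraries compared in the fit (0.225).

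The difference between the conditions was tested as an interaction, the change under stress in DkkMo minus that in scrMo. It was positive for 7 of the 73 genes and negative for 1, where 22.2% of all genes were called, 8.93% positive and 13.2% negative. It was 0.38 ± 0.07 for Mrps2 (adjusted p = 0.00081), 0.32 ± 0.10 for Mrps15 (0.026), 0.28 ± 0.09 for Mrps30 (0.028) and -0.38 ± 0.08 for Mrpl21 (0.0025). Mrps9, Mrpl45, Mrpl37 and Mrps24 were also positive (0.26, 0.26, 0.24 and 0.23). The calls of Mrps2 and Mrpl21 were kept without any single library. That of Mrps15 was lost without log-phase DkkMo replicate 2 or 3, log-phase scrMo replicate 1, stressed DkkMo replicate 1 or stressed scrMo replicate 1 or 2 (adjusted p = 0.0521 to 0.0772). That of Mrps30 was lost without log-phase DkkMo replicate 2, log-phase scrMo replicate 2, stressed DkkMo replicate 1 or 2 or stressed scrMo replicate 2 or 3 (0.0528 to 0.08). Both were also lost with only the groups compared in the fit (0.0604 for Mrps15 and 0.0518 for Mrps30). Without replicate 1 of both log-phase groups 16 were positive and 6 negative. The count was 19 without log-phase DkkMo replicate 1, 5 without log-phase DkkMo replicate 2 or stressed DkkMo replicate 1, and 4 without stressed scrMo replicate 2. With median centring it was 17 positive and 1 negative, where 21.2% of all genes were positive and 8.16% negative.

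scrMo and DkkMo were each set against NT to show what a morpholino of either sequence went with. These comparisons share the NT libraries. In log phase 16 of the 73 genes were higher in scrMo than in NT and 0 lower, while 26.4% of all genes were called, 11.8% higher and 14.6% lower. At an unadjusted p under 0.05 the limma counts were 28 higher and 0 lower, where 17.8% of all genes were higher and 19.8% lower. Limma voom on the recovered reads called 17 higher and 0 lower, where 12.2% and 14.8% of all genes were. The median was 0.11, beside 0.00 over all genes. None passed 1.5-fold, as 2.45% of all genes did. The count was 6 without NT replicate 2, 7 without NT replicate 3, 8 without scrMo replicate 1, with 7 higher and 1 lower, and 10 without scrMo replicate 2. Mrps30 (0.34 ± 0.06, adjusted p = 0.00043), Mrpl45 (0.32 ± 0.06, 0.00047) and Mrpl43 (0.29 ± 0.07, 0.0061) were the largest. In DkkMo 2 genes were higher than in log-phase NT, Mrpl45 (0.24 ± 0.06, adjusted p = 0.0097) and Mrpl21 (0.20 ± 0.06, 0.035), and Mrps24 was lower (-0.17 ± 0.05, 0.037). All 3 calls were lost without NT replicate 3 (adjusted p = 0.0564, 0.0971 and 0.159). That of Mrpl21 was also lost without DkkMo replicate 2 or NT replicate 1 (0.158 and 0.132), and that of Mrps24 without any library but DkkMo replicate 1 (0.0692 to 0.159). With only the libraries compared in the fit, all 3 calls were lost as well (0.0592, 0.224 and 0.162). Of all genes 9.81% were called, 5.36% higher and 4.46% lower, and 0.827% past 1.5-fold, where none of the 73 genes was. The count was 1 without DkkMo replicate 2 or NT replicate 1, and 0 without NT replicate 3.

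Under stress scrMo had 6 genes higher and 21 lower than NT, where 46.8% of all genes were called, 22.1% higher and 24.7% lower. DkkMo had 4 higher and 17 lower, where 41.7% of all genes were called, 19.0% higher and 22.7% lower. The median was -0.06 and -0.07, beside 0.00 and -0.01 over all genes. None passed 1.5-fold in either, as 4.43% and 2.66% of all genes did. Without NT replicate 2 the counts were 16 and 11 genes, and without scrMo replicate 3 that of scrMo was 17. With quantile normalization scrMo had 6 higher and 15 lower, and DkkMo 7 higher and 6 lower, so that the lean to lower in DkkMo was lost. With median centring scrMo had 3 higher and 29 lower, and DkkMo 3 higher and 18 lower. The shares of all genes under these scalings are not given here. Mrps6 was lower in scrMo (-0.37 ± 0.07) and in DkkMo (-0.49 ± 0.07). Mrpl23 was lower by -0.40 ± 0.08 and -0.45 ± 0.08, and Mrpl3 by -0.27 ± 0.05 and -0.35 ± 0.05. Mrpl21 was higher in scrMo (0.47 ± 0.06, adjusted p = 2.4e-06) and DkkMo (0.35 ± 0.06, 8.5e-05), and Mrpl24, a further protein at the tunnel exit, likewise (0.23 ± 0.06 and 0.31 ± 0.06). Mrpl2 was higher (0.24 ± 0.08) and Mrps15 lower (-0.33 ± 0.07) in scrMo, and Mrpl45 was higher in DkkMo (0.24 ± 0.06).

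**Figure D4:**
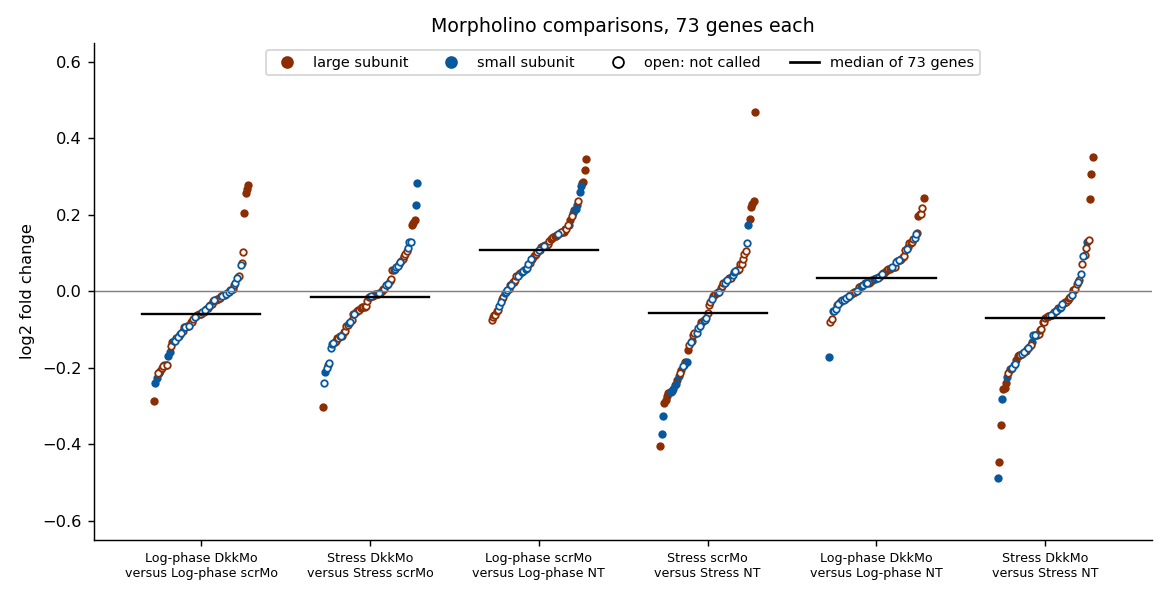
Log2 fold change of each of the 73 genes in the morpholino comparisons, one column of points for each comparison with a line at its median. Colours give the subunit, and open points were not called (limma, adjusted p below 0.05). No gene lies past 1.5-fold, the largest being Mrps6 (-0.49) and Mrpl21 (0.47) against NT under stress.

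The change under stress also differed between scrMo and NT when tested as an interaction. It was lower in scrMo for 27 of the 73 genes and higher for 1, where 46.0% of all genes were called, 23.2% lower and 22.8% higher. Mrps6 (-0.65 ± 0.10, adjusted p = 2.9e-05), Mrps30 (-0.59 ± 0.09, 2.6e-05), Mrpl12 (-0.52 ± 0.13, 0.0025) and Mrps15 (-0.48 ± 0.10, 0.00073) were lowest. The single positive gene was Mrpl21 (0.53 ± 0.08, adjusted p = 3.1e-05). Of the large subunit 17 of 49 genes were lower, and of the small subunit 10 of 24. With median centring 41 genes were lower and 1 higher, where 33.1% of all genes were lower and 15.6% higher. The same interaction was -0.82 ± 0.09 for the leukocyte marker Cd68. For the markers of dividing cells Mki67, Top2a and Ccnb1 it was 1.03 ± 0.20, 1.23 ± 0.18 and 0.51 ± 0.17. Cdk1 was not called (0.24 ± 0.13). The part of these markers in the results was not tested.

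**Figure D5:**
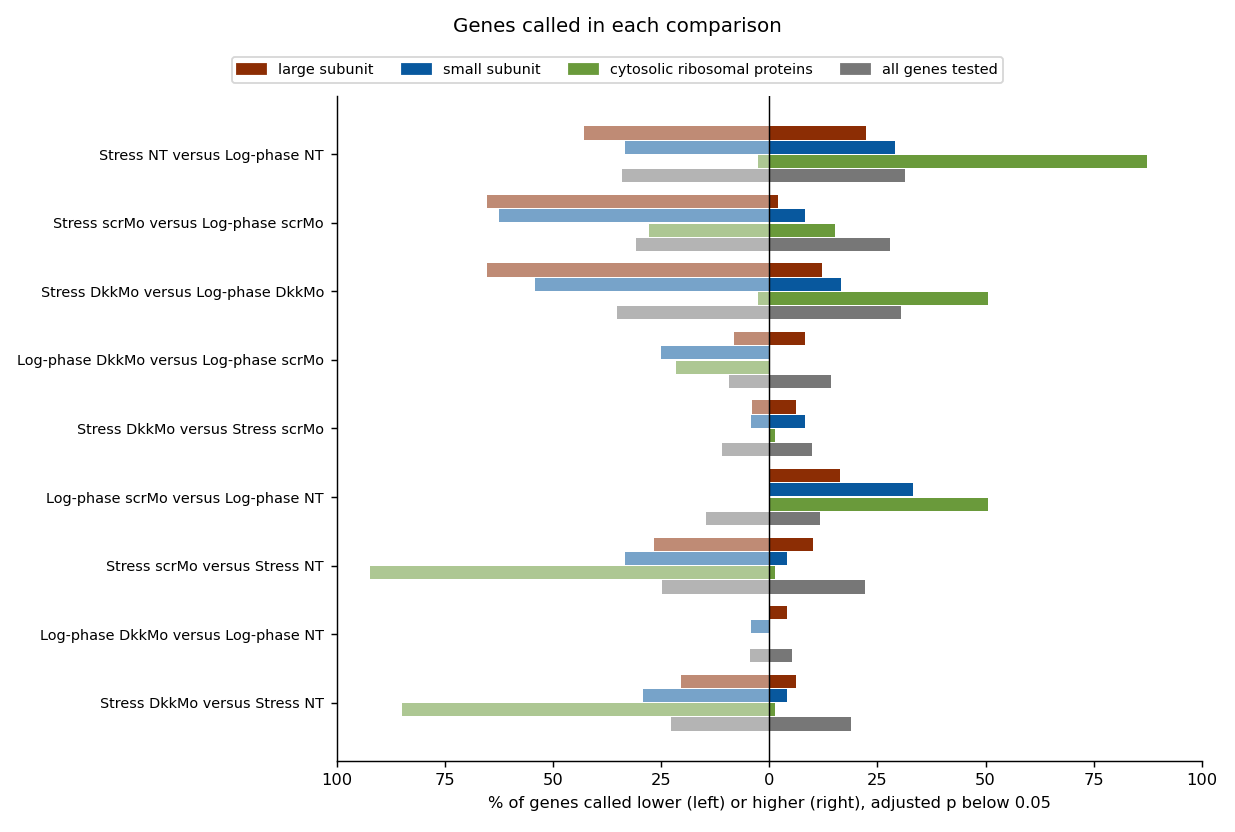
Percent of genes called lower (bars to the left) and higher (to the right) in each of the 9 pairwise comparisons (limma, adjusted p below 0.05), for the large and small subunit of the mitochondrial ribosome, the cytosolic ribosomal proteins and all 16562 genes tested. Under stress in scrMo 65.3% of the large and 62.5% of the small subunit genes were lower, against 30.8% of all genes.

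The mitochondrial rRNAs followed another pattern. Libraries were made from RNA caught on oligo(dT) beads, so that rRNA was counted only as far as it was caught. mt-Rnr1 (chromosome M, 70 to 1024) had 9796, 11304 and 10570 normalized counts in log-phase NT and 10696, 11442 and 9707 under stress (0.01 ± 0.10, adjusted p = 0.96). In DkkMo it had 17133, 15061 and 15612 against 17653, 18431 and 15251 (0.10 ± 0.10, adjusted p = 0.42). In scrMo it had 32134, 41671 and 30732 in log phase and 241484, 223218 and 200965 under stress. Its level in scrMo was thus above every NT and DkkMo library already in log phase, and the rise under stress was 2.67 ± 0.10 (adjusted p = 4.3e-13).

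mt-Rnr2 (chromosome M, 1094 to 2675) moved with it. It had 12886, 14824 and 15054 normalized counts in log-phase NT, 24174, 26824 and 27577 in DkkMo and 58097, 82079 and 59879 in scrMo. Under stress it had 16081, 17142 and 15150 in NT, 34427, 37200 and 31705 in DkkMo and 399541, 376089 and 338838 in scrMo. The 3 treatments did not overlap in either condition, with the order NT, DkkMo, scrMo. The rise under stress was 2.49 ± 0.11 in scrMo (adjusted p = 2e-12), 0.39 ± 0.11 in DkkMo (0.0042) and 0.18 ± 0.11 in NT (0.17). With median centring the rise of mt-Rnr2 in NT (0.33, adjusted p = 0.0112) and of mt-Rnr1 in DkkMo (0.26, adjusted p = 0.0311) passed as well. Under stress both rRNAs were higher in scrMo than in NT, by 4.35 ± 0.10 and 4.50 ± 0.11, and lower in DkkMo than in scrMo, by -3.67 ± 0.10 and -3.42 ± 0.11. As a share of all counts both together took 0.0748% in stressed NT, 0.161% in stressed DkkMo and 1.81% in stressed scrMo.

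The rRNAs and the protein mRNAs therefore differed in size and direction in scrMo under stress, where the rRNAs rose by more than 2 log2 units and 47 of the 73 mRNAs were lower. In DkkMo against scrMo under stress the rRNAs were lower by more than 3 log2 units, while the 73 genes had a median of -0.01. Of the 9 mitochondrial mRNAs measured, 8 were higher in stressed scrMo than in stressed NT, and mt-Co1, a core subunit of cytochrome c oxidase, was lower (-1.55 ± 0.08). Under stress against log phase 7 of the 9 were lower in NT and in DkkMo, and 6 higher and 1 lower in scrMo. The shares of all genes called are those given with each comparison above. Whether the capture of these RNAs, the scrMo libraries or the cells differed was not tested.

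The rest of the mitochondrial translation apparatus was measured beside the 73 genes. Of the ribosomal proteins of the mitochondrion with other symbols, Dap3, Ptcd3 and Gadd45gip1 were in the table. All 3 were lower under stress in scrMo and DkkMo, and Dap3 and Ptcd3 in NT (-0.31 ± 0.06 and -0.63 ± 0.05). Of 26 genes of ribosome assembly and rRNA modification, 7 were higher and 10 lower in NT, 3 and 10 in scrMo, and 3 and 10 in DkkMo. For this list and those of the next paragraph the background is that of all genes. Of these, 31.5% were higher and 34.1% lower in NT, 28.0% and 30.8% in scrMo, and 30.4% and 35.2% in DkkMo. Malsu1, which keeps the large subunit from joining too early, was higher in each (0.77 ± 0.06, 1.37 ± 0.06 and 0.18 ± 0.06). It held 32713 to 99819 reads in a library, where no other gene of this list passed 3409. Overlaps with other genes are not given here for this list, so what was counted to Malsu1 is uncertain. Tfb1m, which methylates the 12S rRNA, was lower in each (-0.58 ± 0.06, -0.43 ± 0.06 and -0.54 ± 0.06). Mterf4, which acts with a methyltransferase in assembly, was lower in NT (-0.88 ± 0.10) and DkkMo (-0.29 ± 0.10) and higher in scrMo (0.32 ± 0.10).

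Of 14 translation factors of the mitochondrion 6 were lower in NT with the others not called, 8 were lower and 2 higher in scrMo, and 7 and 2 in DkkMo. Of 19 aminoacyl-tRNA synthetases and related enzymes 12 were lower and 3 higher in NT, and 9 and 2 in both morpholino treatments. Aars2 was higher in each (0.98 ± 0.05, 0.51 ± 0.05 and 0.74 ± 0.05). Of 15 genes of mitochondrial DNA transcription and RNA turnover 7 were higher and 7 lower in NT, 2 and 8 in scrMo, and 5 and 5 in DkkMo. Of 9 regulators of mitochondrial biogenesis 6 were higher in NT with the others not called, 3 were higher and 1 lower in scrMo, and 5 and 1 in DkkMo. Ppargc1a, the coactivator PGC-1α, was higher in each (1.89 ± 0.06, 1.57 ± 0.06 and 1.59 ± 0.06). Myc was not called in NT (0.16 ± 0.08) and was lower in scrMo and DkkMo (-0.72 ± 0.08 and -0.51 ± 0.08).

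The cytosolic ribosomal proteins gave another pattern in NT, where 69 of 79 were higher under stress and 2 lower, with a median of 0.77 beside -0.08 for the mitochondrial ones. In scrMo 12 were higher and 22 lower (median -0.07), and in DkkMo 40 and 2 (median 0.23). Of all genes 31.5% were higher and 34.1% lower in NT, 28.0% and 30.8% in scrMo, and 30.4% and 35.2% in DkkMo. Under stress 73 of 79 were lower in scrMo than in NT and 67 in DkkMo than in NT, with medians of -0.56 and -0.49. Of all genes 24.7% and 22.7% were lower in these comparisons. In log phase 40 of 79 were higher in scrMo than in NT, where 11.8% of all genes were. Mrpl11, Mrpl22, Mrpl34, Mrpl49 and Mrps23 were not called in any of the 9 pairwise comparisons of groups.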

How the data were processed

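RNA of cultured cells was measured in 18 libraries, 3 in each of 6 groups taken from the labels. The authors aligned the reads with HISAT2 2.1.0 to GRCm38, counted them per gene with featureCounts (Subread 2.0.0) and SAMtools 1.9, and put the counts through DESeq2's variance stabilisation. The values deposited by the authors are therefore on a log2 scale, for 16576 genes. Strand and multimapping settings are not given in the sources used here. The tumours of the series were normalised separately and were not used here.

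Reversing the transformation gave normalized counts and whole reads (tolerance 0.01) for 100% of genes. Of the 16576 rows, 14 that spanned more than 6 log2 units within a group were set aside, none of them among the 73 genes. The deposited values of 16562 genes were fitted with limma 3.58.1 (R 4.3.3, empirical Bayes with trend) with 1 mean per group over all 18 libraries, two-sided, and p-values were adjusted by Benjamini-Hochberg over all genes. A gene was called at an adjusted p below 0.05, and past 1.5-fold on the deposited scale by a second rule. The fit was also run on simulated counts. Far fewer genes changed there than were called under stress in these data, and the outcome is not given here. Values are normalized counts, fold changes are on the deposited log2 scale, and errors are SE or SD as stated.

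The genes named were the rRNAs, the highest and lowest members per kb, the 3 largest rises and falls among called members without overlap in each comparison, every member past 1.5-fold, the 10 members with the largest mean change among those called alike in all 3 stress comparisons, Mrpl19 with Rps18 and Gapdh, Mrps30, Mrps18a and Mrps36, and up to 3 called genes of each other list. Mrpl3, Mrps12, Mrpl46 with Mrps11, Mrps5, Mrps9, Mrpl37, Mrps24 in the first interaction and those never called were named after their values were seen. Of the other lists, the values of 1 gene are not reported here. The members and lists were chosen with earlier results of these data known. Gene positions and exon lengths are from GENCODE vM21 (GRCm38), which named 97.9% of the genes, and promoters from RefSeq (GRCm38.p6). Alternatives changed the scale, scaling, filter, threshold, samples in the fit, length and GC trend, replicate block and test (limma voom), and left out each library in turn.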

Additional observations from a re-analysis of the deposited data

Results flagged for a closer look

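The change under stress differed between treatments by a test of the difference itself. Between DkkMo and scrMo it differed for 8 of the 73 genes, where it did for 22.2% of all genes, a larger share. Mrps2 gave 0.38, Mrps15 0.32, Mrps30 0.28 and Mrpl21 -0.38 (log2, change in DkkMo minus change in scrMo). The mitochondrial rRNAs gave -2.57 for mt-Rnr1 and -2.10 for mt-Rnr2 in the same test, since their rise under stress was far larger in scrMo than in DkkMo. Between scrMo and NT the change under stress differed for 28 of the 73 genes, where it did for 46.0% of all genes, again a larger share. Mrps6 gave -0.65, Mrps30 -0.59, Mrpl12 -0.52 and Mrpl21 0.53 (change in scrMo minus change in NT), and mt-Rnr1 gave 2.66 and mt-Rnr2 2.31. What sets the scrMo cultures apart was not tested.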

How the results depend on the processing

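In the comparisons of stress with log phase the number of the 73 genes called stayed within 1.5 times under every alternative run. Leaving out 1 library gave 43 to 45 genes in NT, 44 to 56 in scrMo and 45 to 57 in DkkMo, and the split by direction under other scalings is given with the results. The counts of the other comparisons were less stable. At an adjusted p below 0.01 they were 4 for DkkMo against scrMo in log phase and 3 under stress, 6 for scrMo against NT in log phase and 14 under stress, 1 for DkkMo against NT in log phase and 12 under stress, and 3 and 18 for the interactions of DkkMo with scrMo and of scrMo with NT. With median centring the log-phase counts were 25 for DkkMo against scrMo and 32 for scrMo against NT, and the first interaction gave 18. With quantile normalization DkkMo against NT under stress gave 13 and the first interaction 14. With only the groups compared in the fit, DkkMo against scrMo gave 0 in log phase and 19 under stress, scrMo against NT 6 in log phase, DkkMo against NT 0 in log phase and 33 under stress, and the first interaction 4. With the length and GC trend removed DkkMo against NT in log phase gave 5. Leaving out libraries gave 6 to 21 and 4 to 7 genes for DkkMo against scrMo in log phase and under stress, 6 to 22 and 16 to 22 for scrMo against NT, 0 to 4 and 11 to 17 for DkkMo against NT, and 4 to 22 and 25 to 31 for the interactions. The 22 of the first interaction left out replicate 1 of both log-phase groups, which was chosen after seeing the data, as was keeping the 14 rows set aside, which left every count of called genes within 1.5 times. No named gene reversed its direction after it was called. For most of these alternatives, and with libraries left out, the shares of all genes called are not given here. The cause of these shifts was not tested.

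The replicate numbers are only a number. Of 30 correlations between same-numbered libraries of 2 groups, from -0.114 to 0.719, 12 were the best for their library. With the replicate block the counts were 52 for stress in scrMo and 55 in DkkMo, 16 and 7 for DkkMo against scrMo in log phase and under stress, 17 for scrMo and 2 for DkkMo against NT in log phase, and 9 for the first interaction, or 13 with the block and the length and GC trend removed. No paired analysis was possible for comparisons with stressed NT because a number is repeated in its titles. Depth limits Mrps23, which had 20 reads in 1 library. No permutation of 3 against 3 libraries can give a p below 0.10.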
